A study of Mus musculus with 292 samples.

Results

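The 27 genes described here make, sense and move cholesterol. They were taken by symbol from a fixed list and each matched 1 of the 48795 gene identifiers in the count tables; all 27 passed the filter on low counts in every tissue. Of these, 20 encode enzymes of sterol synthesis: 5 early mevalonate enzymes (Acat2, Hmgcs1, Mvk, Pmvk, Mvd), 5 enzymes of the isoprenoid and squalene steps (Idi1, Fdps, Ggps1, Fdft1, Sqle) and 10 enzymes that act after squalene (Lss, Cyp51, Tm7sf2, Msmo1, Nsdhl, Hsd17b7, Ebp, Sc5d, Dhcr7, Lbr). A further 4 form the SREBP2 control circuit (Srebf2, Scap, Insig1, Insig2), and 3 move sterols between membranes (Stard4, Npc1, Npc2).

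Animal cells build cholesterol from acetyl-CoA through mevalonate, farnesyl pyrophosphate and squalene. When membranes of the endoplasmic reticulum are poor in sterol, the escort protein Scap carries the transcription factor SREBP2 (encoded by Srebf2) to the Golgi, where it is cut, and the released part enters the nucleus and switches on the enzyme genes; when sterol is plentiful, the Insig proteins hold Scap back. The liver makes cholesterol for the circulation and for bile and does so with a daily rhythm tied to feeding, whereas the brain, closed off from circulating cholesterol by its barrier, makes its own, mostly in glia.

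All animals were male wild-type C57BL/6J mice, 26 weeks old, sampled at 3 h intervals across 36 h; the labels list no other genotype, strain or age and no treatment. Time is given as zeitgeber time (ZT), by convention counted from lights-on; no source used here gives the light schedule. The 13 time points fold onto 8 ZT groups, of which ZT0 to ZT12 were sampled in both cycles. Liver gave 77 libraries, cortex 78, hypothalamus 77 and striatum 60, each from a separate mouse within its tissue. The labels carry 79 mouse codes, most of them in several tissues; 1 code, found in striatum alone at ZT9, differs by a letter from a code of the other 3 tissues at the same time point and was counted as a mouse of its own, so the number of animals may be 78. Liver, cortex and hypothalamus groups held 11 or 12 libraries from ZT0 to ZT12 and 6 from ZT15 to ZT21, while striatum groups held 2 to 11. Total gene counts, in mega counts (M), were 11.7 to 41.9 M per library in liver, 28.3 to 40.5 M in cortex, 29.2 to 50.01 M in hypothalamus and 11.7 to 43.4 M in striatum.

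A few libraries stood apart from their tissue. The liver library ZT18 replicate 4 held 11.7 M counts against at least 27.5 M in the others, and its normalisation factor (TMM, which corrects for a few genes taking a large share of the counts) was 0.217 against 0.719 to 1.08. In cortex, ZT0 replicate 1 and ZT9 replicate 9 had summed levels of 4 excitatory neuron markers of 10.01 and 18.6 CPM (counts scaled to the library's total times that factor) against 1157 to 1737 in the other 76 libraries, so markers that define cortical neurons were near 0 in them. In hypothalamus 4 pituitary markers summed to a median of 3.58 CPM and reached 36187 CPM in 1 library. The 5 hepatocyte markers summed to at least 68472 CPM in every liver library. In bulk tissue, fewer cells of a type and less RNA per cell cannot be told apart.

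In liver most of the sterol genes were low at the end of the day and highest around ZT0, and the 3 transport genes peaked by day. A 24 h cosine was fitted to each gene's counts with edgeR's quasi-likelihood test, adjusted over all genes tested (Benjamini-Hochberg), and a gene was called rhythmic at an adjusted p under 0.05; the ratio below is fitted peak over fitted trough, which lies above 1 for noise too. By that rule 26 of the 27 genes were rhythmic in liver (96.3%), where 72.8% of all genes tested were called. By size of swing, 17 of 27 had a ratio of 1.5-fold or more against 27.9% of all genes, and the median log2 ratio was 0.64 for the members and 0.38 over all genes. Of the rhythmic members, 22 peaked between ZT18 and ZT6 against 38.3% of all genes tested, and 4 between ZT6 and ZT18 against 34.5%. Among the 20 enzymes 19 were called, with a mean peak at ZT0.52, and Ggps1, which makes geranylgeranyl pyrophosphate for protein prenylation, was not (log2 ratio 0.08, adjusted p 0.405). Because a cosine bends the profile into a smooth wave, the ZT group means were read as well: the lowest liver mean fell at ZT12 for 14 of the 20 enzymes, and the highest at ZT0 for 9 and at ZT3 for 9.

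**Figure D1:**
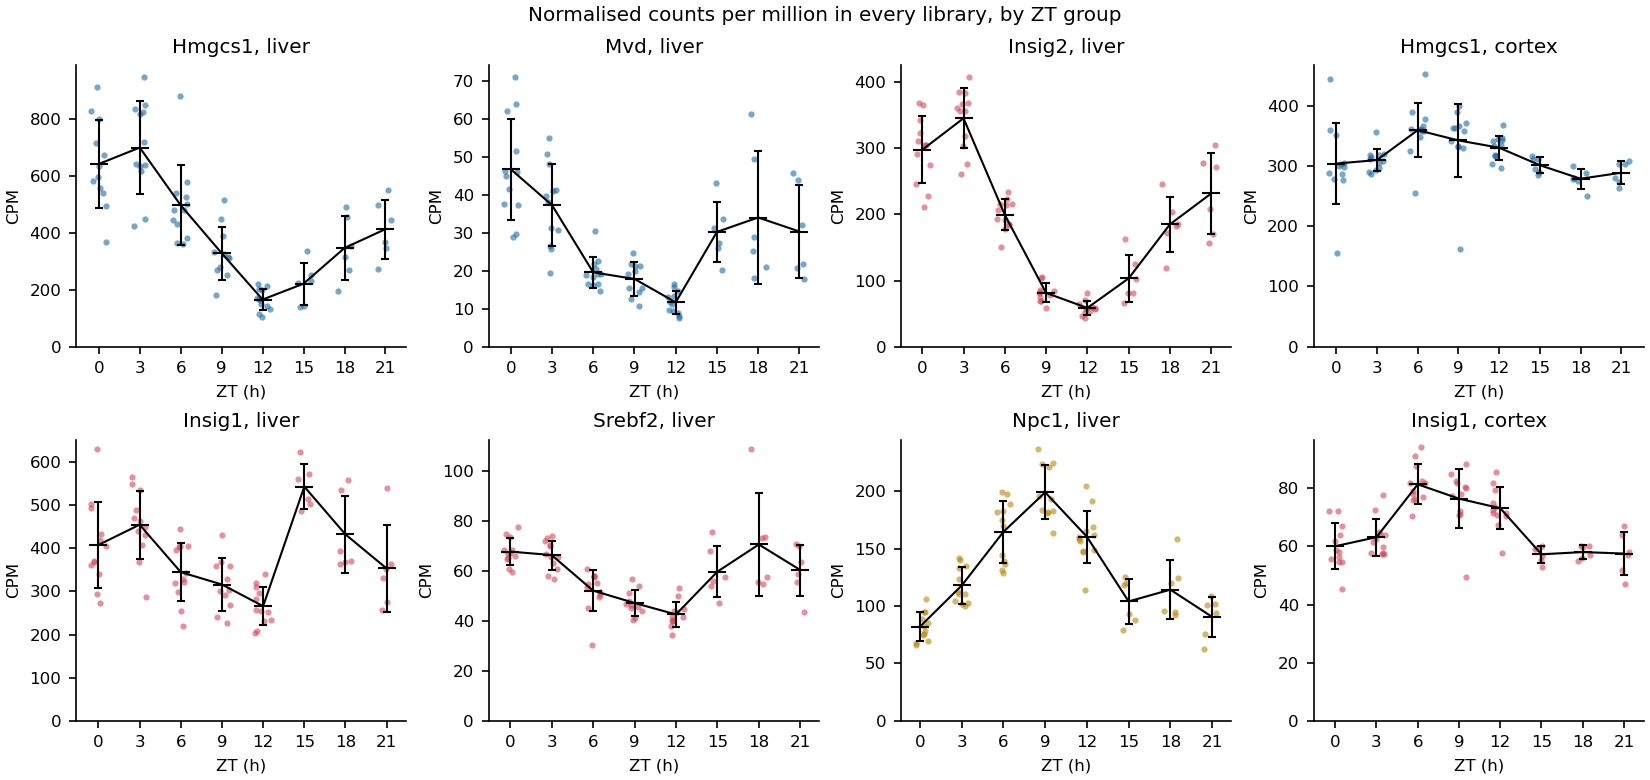
CPM against ZT (h) for 6 genes in liver and 2 in cortex; each point is a library, with the group mean ± SD in black. In liver Hmgcs1, Mvd and Insig2 are lowest at ZT12 and high at ZT0 and ZT3, while Npc1 is highest at ZT9.

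The early mevalonate enzymes were called in liver without exception, all 5 with a peak between ZT18 and ZT6 and a median log2 ratio of 1.04. Over all genes tested, 72.8% were called and 38.3% were called with a peak in that window. Hmgcs1 (ENSMUSG00000093930, on the plus strand at chr13:119690379-119708260, GRCm38) encodes the cytosolic HMG-CoA synthase, which makes the HMG-CoA from which mevalonate is made. Its liver libraries ran from 424 to 948 CPM at ZT3 (median 681, n = 12), from 104 to 221 CPM at ZT12 (median 166, n = 12) and from 139 to 337 CPM at ZT15 (median 228, n = 6). Every ZT3 library thus lay above every ZT12 and every ZT15 library. The fitted swing was 3.72-fold (log2 ratio 1.90 ± 0.13, SE), with the peak at ZT1.62 and an adjusted p of 2.56e-21. Mvd (ENSMUSG00000006517, minus strand, chr8:122433601-122443422) encodes the mevalonate pyrophosphate decarboxylase, which closes this stretch of the path. Its libraries ran from 28.9 to 71.1 CPM at ZT0 (median 45.6, n = 12), from 7.42 to 16.6 CPM at ZT12 (median 11.5, n = 12) and from 20.1 to 43.2 CPM at ZT15 (median 29.3, n = 6). Mvd had already left its trough by ZT15, where all 6 libraries exceeded all 12 of ZT12, and its fitted ratio was 3.15-fold (log2 1.65 ± 0.16, adjusted p 1.97e-14). Pmvk, the phosphomevalonate kinase, had 54.7 to 120 CPM at ZT0 and 30.2 to 51.2 CPM at ZT12, also with no overlap, and a ratio of 2.06-fold. Mvk, the first mevalonate kinase, had a ratio of 1.81-fold. Acat2, which makes the acetoacetyl-CoA that Hmgcs1 uses, swung by 1.27-fold, and 65.6% of its transcript has a near-identical copy in Acat3, so its counts may hold reads of both.

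Of the isoprenoid and squalene enzymes, 4 of 5 were called in liver, each with a ratio above 1.5-fold and a peak between ZT22.3 and ZT1.25. Beside these, 72.8% of all genes tested were called, and 27.9% were called with a ratio of 1.5-fold or more. Sqle, the squalene epoxidase that performs the first oxygen-requiring step, ran from 79.5 to 181 CPM at ZT0 (median 122), 34 to 95.5 CPM at ZT12 (median 60.6) and 75.5 to 137 CPM at ZT15 (median 114). Its ZT0 and ZT12 libraries overlapped, and its fitted ratio was 1.84-fold (log2 0.88 ± 0.12, adjusted p 5.5e-09). Fdft1, the squalene synthase, reached 1.65-fold, Idi1, the isopentenyl pyrophosphate isomerase, 1.59-fold, and Fdps, the farnesyl pyrophosphate synthase, 1.58-fold. Fdps, Fdft1 and Idi1 share 76.8%, 33.7% and 22.6% of their transcript with near-identical genes or pseudogenes, and no source used here says how such reads were split. Ggps1, the member that was not rhythmic, shares 21.3%. Other annotated genes also overlap 26.7% of the exonic bases of Fdps, 18.3% of Fdft1, 13.2% of Scap, 12.1% of Hmgcs1, 12.1% of Tm7sf2 and 10.7% of Lbr, on the same strand for Fdps and Tm7sf2 and wholly or mostly on the other for the rest. Without a known strand setting, reads of such pairs cannot be told apart there.

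All 10 enzymes that act after squalene were called in liver (72.8% of all genes tested), 9 of them with a peak between ZT18 and ZT6 (38.3%). Dhcr7, which performs a last reduction on the way to cholesterol, ran from 85.5 to 187 CPM at ZT0 (median 140.3) and from 52.3 to 94.0 CPM at ZT12 (median 77.3), a fitted ratio of 1.76-fold. Sc5d, the lathosterol desaturase, ran from 619 to 878 CPM at ZT3 (median 718, n = 12) and from 358 to 495 CPM at ZT15 (median 432, n = 6). Its groups did not overlap at those times, and the fitted ratio was 1.71-fold (log2 0.78 ± 0.07, adjusted p 3.6e-16). Lss, which closes squalene epoxide into the sterol rings, reached 1.73-fold, and Cyp51, the lanosterol demethylase, 1.51-fold. Nsdhl and Msmo1, which strip the methyl groups from the fourth carbon of the ring, had ratios of 1.44-fold and 1.42-fold with peaks at ZT3.57 and ZT3.62. Hsd17b7, Ebp, Tm7sf2 and Lbr were called with ratios from 1.14-fold to 1.23-fold. Lbr, a nuclear envelope protein that is also a sterol reductase, was the enzyme whose fitted peak lay outside that window, at ZT17.5.

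The control genes gave both the widest and one of the narrower swings. Insig2 (ENSMUSG00000003721, minus strand, chr1:121304353-121332589) encodes the second Insig protein, of which the liver has a variant that is repressed by insulin. In liver it ran from 262 to 408 CPM at ZT3 (median 359, n = 12), from 42.7 to 80.6 CPM at ZT12 (median 57.8, n = 12) and from 65.9 to 163 CPM at ZT15 (median 91.9, n = 6). No ZT12 or ZT15 library came near any of ZT3, and the fitted ratio of 5.38-fold (log2 2.43 ± 0.11, peak ZT0.371, adjusted p 6.86e-30) was the highest of the 27. Insig1 (ENSMUSG00000045294, plus strand, chr5:28071363-28078662), the family member that SREBP2 itself induces, was lowest at ZT12, with 203 to 341 CPM (median 256, n = 12). At ZT15 it stood at 486 to 624 CPM (median 537, n = 6), above every ZT12 library, and at ZT3 at 288 to 566 CPM (median 456, n = 12). Its group means were thus high at ZT15 and again at ZT3, with 257 to 539 CPM (median 341, n = 6) between them at ZT21, and the 24 h cosine fitted it at 1.42-fold (log2 0.51 ± 0.12, adjusted p 0.000894).

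Srebf2 (ENSMUSG00000022463, plus strand, chr15:82147181-82205379) ran in liver from 59.5 to 77.4 CPM at ZT0 (median 66.7, n = 12) and from 34.2 to 53.03 CPM at ZT12 (median 41.5, n = 12). Its ZT0 and ZT12 libraries did not overlap, but those of the ZT groups nearest its fitted peak and trough did. It was fitted at 1.55-fold with the peak at ZT22.4 (log2 0.64 ± 0.07, adjusted p 1.4e-11). Scap had the same fitted size, 1.55-fold, with a later peak at ZT4.57, from 123 to 170 CPM at ZT6 (median 158) and 73.8 to 94.3 CPM at ZT15 (median 80.5). The ZT18 range of Srebf2, 54.8 to 109 CPM, and that of Scap, 96.4 to 193 CPM, each had replicate 4 as its highest library.

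The 3 transport genes ran on another schedule, with peaks at ZT8.49 for Stard4, ZT9.31 for Npc1 and ZT7.6 for Npc2. Npc1, the lysosomal membrane protein that releases cholesterol taken up with lipoproteins, ran from 164 to 237 CPM at ZT9 (median 193, n = 11) and from 62.8 to 109 CPM at ZT21 (median 97.4, n = 6). The lowest ZT9 library was well above the highest at ZT21, and the fitted ratio was 2.26-fold (log2 1.18 ± 0.08, adjusted p 1.35e-20). Stard4, a soluble sterol carrier, ran from 188 to 281 CPM at ZT9 and from 87.6 to 144 CPM at ZT21, again with no overlap (1.56-fold, log2 0.64 ± 0.09, adjusted p 1.83e-08). Npc2, which hands cholesterol to Npc1 inside the lysosome, swung by 1.13-fold (adjusted p 0.0146). In all, 7 of the 27 genes (Hmgcs1, Pmvk, Mvd, Sc5d, Insig2, Stard4 and Npc1) were called with no overlap between the libraries at the ZT groups nearest their fitted peak and trough, against 17.3% of all genes tested.

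The liver profiles were also read over the step from ZT12 to ZT15. The group mean was higher at ZT15 than at ZT12 for 18 of 27 genes, against 50.4% of all genes. Insig1 and Mvd were the 2 genes with every ZT15 library above every ZT12 library (2.66% of all genes), by 2.04-fold and 2.59-fold in the means, and 0 genes had every ZT15 library below (2.41% of all genes). The means of Sqle and Insig2 were 1.79-fold and 1.76-fold higher at ZT15, with overlapping libraries, and that of Npc1 was lower, at 0.649 of the ZT12 mean. A 12 h component beside the 24 h one was called by edgeR's quasi-likelihood test for 6 of 27 genes in liver (22.2%, against 15.4% of all genes tested). These were Insig2 (adjusted p 1.02e-08), Insig1 (0.000216), Npc1 (0.00568), Scap (0.0059), Sc5d (0.0256) and Srebf2 (0.0262), and 8 genes had an unadjusted p under 0.05. In cortex it was called for 0 of 27, with 0 at an unadjusted p under 0.05 (0.332% of all genes called).

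Markers of other liver cell types also varied with time. The 5 markers of Kupffer and other non-parenchymal cells were all called and summed to 308 ± 36.6 CPM (SD, n = 12) at ZT3, their highest mean, and to 247 ± 39.8 CPM (n = 6) at ZT18, their lowest. The 4 endothelial markers, all called, summed to 53.0 ± 9.24 CPM (n = 12) at ZT3 and 36.3 ± 7.47 CPM (n = 12) at ZT12. Of the 5 hepatocyte markers 2 were called. Beside these counts, 72.8% of all genes tested were called in liver. The part of these changes in the sterol gene rhythms was not tested.

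SREBP2 is known to act at promoters together with the trimeric factor NF-Y. Promoters of 4 genes are shown: Hmgcs1, Mvd and Insig2, which had the 3 widest liver swings, and Insig1, which had the widest swing in cortex and hypothalamus. Each window runs from 250 bases before to 50 after the annotated start (RefSeq, GRCm38.p6), 5′ to 3′ on the strand of the gene. Capitals mark the sterol regulatory element core TCACNCCAC and the NF-Y box CCAAT, on either strand. The windows are chr13:119690101-119690400 (plus) for Hmgcs1, chr8:122443373-122443672 (minus) for Mvd, chr5:28071162-28071461 (plus) for Insig1 and chr1:121332540-121332839 (minus) for the most upstream of the starts of Insig2.
Hmgcs1: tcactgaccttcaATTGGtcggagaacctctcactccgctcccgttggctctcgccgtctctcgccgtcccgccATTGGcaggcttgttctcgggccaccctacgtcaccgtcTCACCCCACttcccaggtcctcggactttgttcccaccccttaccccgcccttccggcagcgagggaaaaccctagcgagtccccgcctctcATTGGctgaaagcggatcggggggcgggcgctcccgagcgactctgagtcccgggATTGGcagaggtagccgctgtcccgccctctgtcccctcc
Mvd: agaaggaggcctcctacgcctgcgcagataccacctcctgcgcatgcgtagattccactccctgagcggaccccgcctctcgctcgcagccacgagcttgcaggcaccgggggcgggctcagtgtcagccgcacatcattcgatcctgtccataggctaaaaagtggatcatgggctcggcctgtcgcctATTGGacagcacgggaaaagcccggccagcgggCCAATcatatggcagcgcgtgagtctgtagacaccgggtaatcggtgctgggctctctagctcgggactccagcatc
Insig1: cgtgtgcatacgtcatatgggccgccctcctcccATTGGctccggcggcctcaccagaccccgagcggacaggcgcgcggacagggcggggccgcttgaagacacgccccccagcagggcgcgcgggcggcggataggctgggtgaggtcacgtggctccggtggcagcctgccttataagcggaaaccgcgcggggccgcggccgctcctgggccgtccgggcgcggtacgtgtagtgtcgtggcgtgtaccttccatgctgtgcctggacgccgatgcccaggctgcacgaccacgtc
Insig2: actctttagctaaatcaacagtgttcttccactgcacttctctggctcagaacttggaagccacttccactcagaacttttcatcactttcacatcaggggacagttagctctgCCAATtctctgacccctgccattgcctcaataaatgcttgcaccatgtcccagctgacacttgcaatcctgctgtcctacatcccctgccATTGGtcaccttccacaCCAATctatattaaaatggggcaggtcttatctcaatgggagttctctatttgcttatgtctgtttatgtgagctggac
Hmgcs1 has the element core 137 bases before its start and NF-Y boxes 237, 176 and 45 bases before it and 11 after it. In Mvd the boxes lie 60 and 27 bases before the start, and in Insig1 there is 1, 216 bases before it, with an E-box (CACGTG, the clock's main binding motif) 101 bases before the start. The Insig2 window has boxes 136, 46 and 29 bases before the start. It also has a match to TTANNTAA, a loose pattern for the D-box of the clock's PAR bZIP output factors, 245 bases before the start. The match reads TTAGCTAA, and binding of these factors to it was not tested. The windows of the other 2 starts of Insig2 hold none of these motifs.

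The promoter table held 22 of the 27 genes. An NF-Y box on either strand was found in 20 of those 22 (90.9%), against 41.1% of the 27025 genes in the table and 37.4% of its 32851 promoters. The strict element core was found in 1 of 22, Hmgcs1, against 1.44% of genes and 1.24% of promoters. The E-box was found in 5 of 22 (Hsd17b7, Insig1, Dhcr7, Sc5d and Scap), against 8.09% of genes, and the loose D-box pattern in 1, Insig2, against 6.93%. These are matches of letters in a short window, not measured binding.

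In cortex the same genes moved less and peaked by day. There 20 of 27 were rhythmic (74.1%) against 43.7% of all genes tested, and 0 of 27 reached a ratio of 1.5-fold (8.09% of all genes). A peak between ZT6 and ZT18 was fitted for 15 (22.9% of all genes) and between ZT18 and ZT6 for 5 (20.8%). Of the enzymes 17 of 20 were called, with a mean peak at ZT8.44, and 14 of the rhythmic members peaked between ZT6 and ZT12. Idi1, Cyp51, Hsd17b7, Scap and the 3 transport genes did not pass the test.

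**Figure D2:**
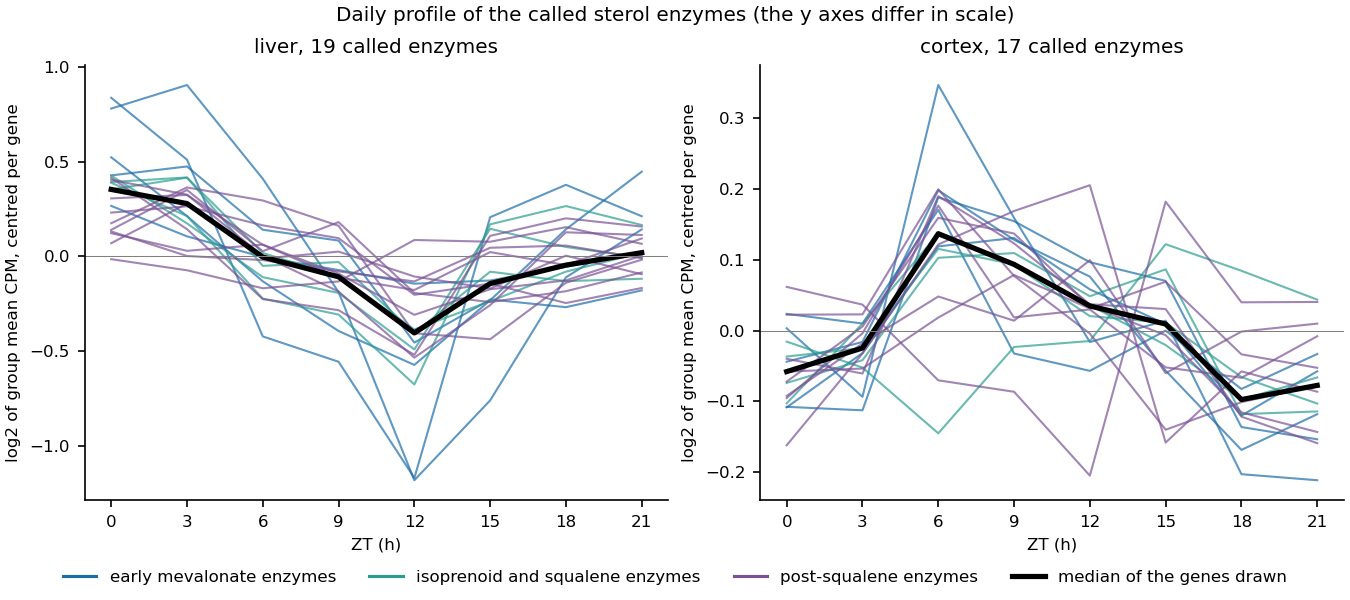
Log2 of the group mean CPM, centred per gene, against ZT (h) for the rhythmic enzymes of liver (19 genes) and cortex (17 genes), with their median as a thick black line; the y axes differ in scale. The liver median falls from 0.35 at ZT0 to -0.40 at ZT12, and the cortex median runs from 0.14 at ZT6 to -0.10 at ZT18.

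Insig1 had the widest swing of the 27 in cortex. Its libraries ran from 70.7 to 94.4 CPM at ZT6 (median 80.5, n = 12), from 49.6 to 88.3 CPM at ZT9 (median 79.04, n = 12) and from 54.9 to 60.3 CPM at ZT18 (median 58.4, n = 6). All ZT6 libraries were above all of ZT18; the lowest ZT9 value is replicate 9, 1 of the 2 libraries nearly without excitatory neuron markers. The fitted ratio was 1.43-fold with the peak at ZT8.11 (log2 0.52 ± 0.06, adjusted p 1.08e-11). Mvd ran from 15.4 to 27.5 CPM at ZT6 (median 18.96) and from 11.9 to 15.2 CPM at ZT18 (median 13.5), a fitted 1.33-fold. Hmgcs1 ran from 162 to 400.1 CPM at ZT9 (median 361, n = 12) and from 263 to 308 CPM at ZT21 (median 292, n = 6), overlapping through replicate 9 at ZT9, and was fitted at 1.24-fold (log2 0.32 ± 0.07, adjusted p 0.000376). Mvd and Nsdhl were the 2 genes called in cortex with no overlap between the ZT groups nearest peak and trough, against 3.3% of all genes tested. Lss (1.28-fold, ZT9.49), Mvk (1.27-fold), Msmo1 (1.21-fold) and Dhcr7 (1.20-fold, ZT5.91) followed the same daytime course.

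The control genes of the cortex did not move as 1 group. Insig2 was higher at night, from 47.1 to 55.8 CPM at ZT21 (median 52.2) against 41.9 to 49.0 CPM at ZT9 (median 44.1), with the peak at ZT20.1 (1.18-fold, log2 0.24 ± 0.03, adjusted p 7.5e-10). Srebf2 peaked at ZT0.218 with 1.14-fold (adjusted p 0.00572), and Scap was not called. Among the enzymes, Ggps1 (ZT17.5) and Ebp (ZT21.4) peaked later than the daytime group.

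The 2 cortex libraries nearly without excitatory markers had the lowest or highest values for many members. At least 1 of them lay below all other cortex libraries for 17 of 27 genes and above them for 2, Npc1 and Npc2; for Hmgcs1 they had 155 and 162 CPM against a median of 317 in the rest, each of which was higher. Their summed oligodendrocyte markers were 6568 and 9333 CPM against 1798 to 4328. Without them 21 genes were rhythmic, Stard4 being the one gained (adjusted p 0.00577 in edgeR's quasi-likelihood test). Of the 9 oligodendrocyte markers 5 were called in cortex, 3 with a peak between ZT6 and ZT18. The 4 endothelial markers were all called with a peak between ZT18 and ZT6 and summed to 162 ± 12.1 CPM (SD, n = 12) at ZT0 and 115 ± 4.38 CPM (n = 12) at ZT12. Of the 6 astrocyte markers 1 was called, and of the 4 choroid plexus markers 3 (summed 1.55 to 239 CPM). The 5 striatal projection neuron markers, of which 0 were called, summed to 103 to 4220 CPM over the cortex libraries (median 719). Their highest group mean was 869 ± 582 CPM at ZT0 and their lowest 416 ± 224 CPM at ZT15. Beside these counts, 43.7% of all genes tested were called in cortex, 20.8% with a peak between ZT18 and ZT6 and 22.9% between ZT6 and ZT18. The part of these markers in the cortex result was not tested.

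In hypothalamus the genes that passed the test peaked mostly by day, with small swings. There 11 of 27 genes were rhythmic (40.7%) against 24.3% of all genes tested, 9 with a peak between ZT6 and ZT18 (12.9% of all genes) and 0 with a ratio of 1.5-fold (4.64%). Insig1 ran from 80.8 to 102 CPM at ZT6 (median 96.0, n = 12) and from 74.1 to 85.2 CPM at ZT18 (median 76.6, n = 6), and was fitted at 1.22-fold with the peak at ZT6.56 (log2 0.29 ± 0.05, adjusted p 2.51e-05). Those groups overlapped slightly, and none of the 11 genes was free of overlap between its peak and trough groups (1.17% of all genes were called and free of it). Mvd, Mvk, Hmgcs1, Dhcr7, Hsd17b7, Acat2 and Sqle also peaked between ZT6 and ZT12, and Sc5d at ZT13.6. All of these lost the call with the first cycle alone, and Hmgcs1 lost it under most other settings. Without the libraries that stood apart, Hmgcs1, Acat2 and Sqle were not called (adjusted p 0.0611, 0.0576 and 0.0619 in edgeR's quasi-likelihood test). Ggps1 and Ebp were the members with a peak between ZT18 and ZT6, at ZT18.3 and ZT20.2. Of the 5 hypothalamic neuron markers, which summed to 478 to 2206 CPM, 0 were called, against 4 of 4 endothelial, 3 of 9 oligodendrocyte and 2 of 4 pituitary markers. Of the 5 striatal projection neuron markers 4 were called there, all 4 with a peak between ZT6 and ZT18 as for 9 of the sterol genes, with a summed level of 80.2 to 504 CPM. The part of these markers in the result was not tested. The count of 11 fell to between 2 and 6 under several other settings given in the closing section.

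In striatum 0 of 27 genes passed edgeR's quasi-likelihood test, where 5.7% of all genes did (3.1% with a ratio of 1.5-fold, 2.4% with a peak between ZT6 and ZT18 and 0.721% with peak and trough groups free of overlap), and 4 had an unadjusted p under 0.05 (Mvk, Dhcr7, Lbr and Insig1). DESeq2's likelihood ratio test called 1, Insig1 (adjusted p 0.049). Insig1 was fitted in striatum at 1.32-fold with a peak at ZT8.54 (adjusted p 0.0659). With 2 libraries at ZT15 and 4 at ZT18, and with summed projection neuron markers from 59.7 to 6377 CPM and cerebellar markers of up to 4631 CPM (median 10.4), the striatum was the most thinly sampled of the 4 tissues, and these counts do not show that its sterol genes were flat.

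**Figure D3:**
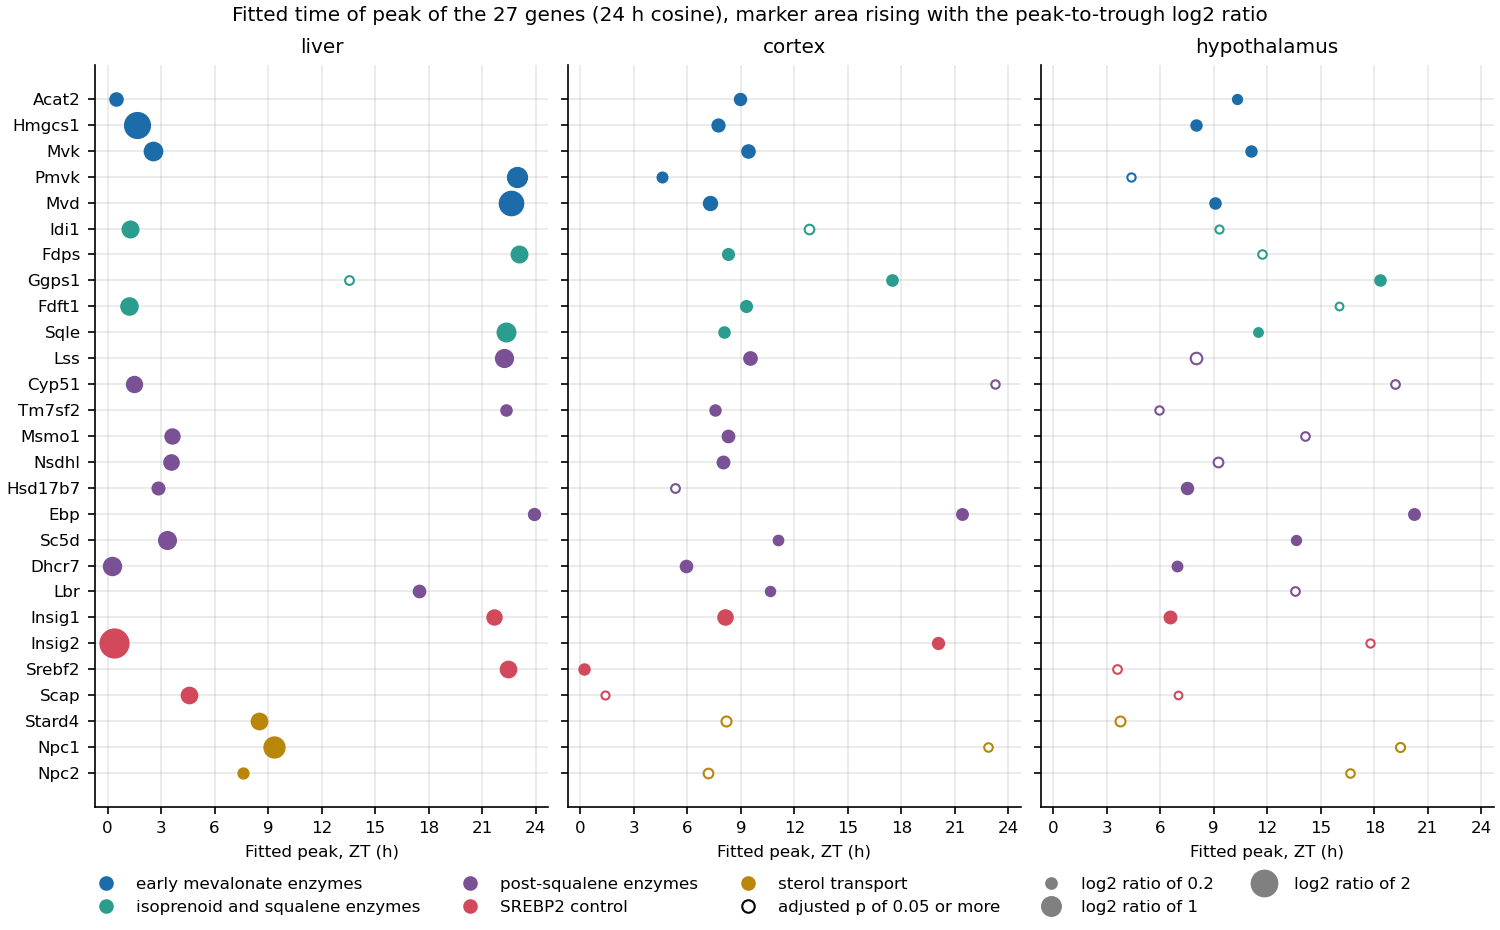
Fitted peak (x axis, ZT in h) of each of the 27 genes (y axis) in liver, cortex and hypothalamus; marker area rises with the log2 ratio, and open markers did not pass the test. The called liver enzymes lie around ZT0.52 and those of cortex around ZT8.44, while in liver the 3 transport genes lie near ZT8.47.

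The daily course of these genes differed between liver and brain, by the interaction of tissue with the cosine terms in edgeR's quasi-likelihood test. Liver against cortex, 24 of 27 genes differed (88.9%) against 63.6% of all genes tested; Ggps1, Ebp and Npc2 did not pass (adjusted p 0.0982, 0.126 and 0.881). Most mice gave both tissues, and with the mouse as a block 24 genes differed as well (62.1% of all genes). A difference can lie in amplitude or in time, so peak times were compared for the 19 genes called in both. Their peaks were more than 6 h apart for 12 (63.2%), against 32.3% of all 5438 genes called in both. By the shorter way round the 24 h day, liver peaked earlier for 16 and later for 3. The 95% interval of the difference, which takes the tissues as independent, left out 0 for 17 (all but Ebp and Srebf2). An interval that passes 12 h, as for Lss and Insig1, does not settle which tissue peaked first.

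**Figure D4:**
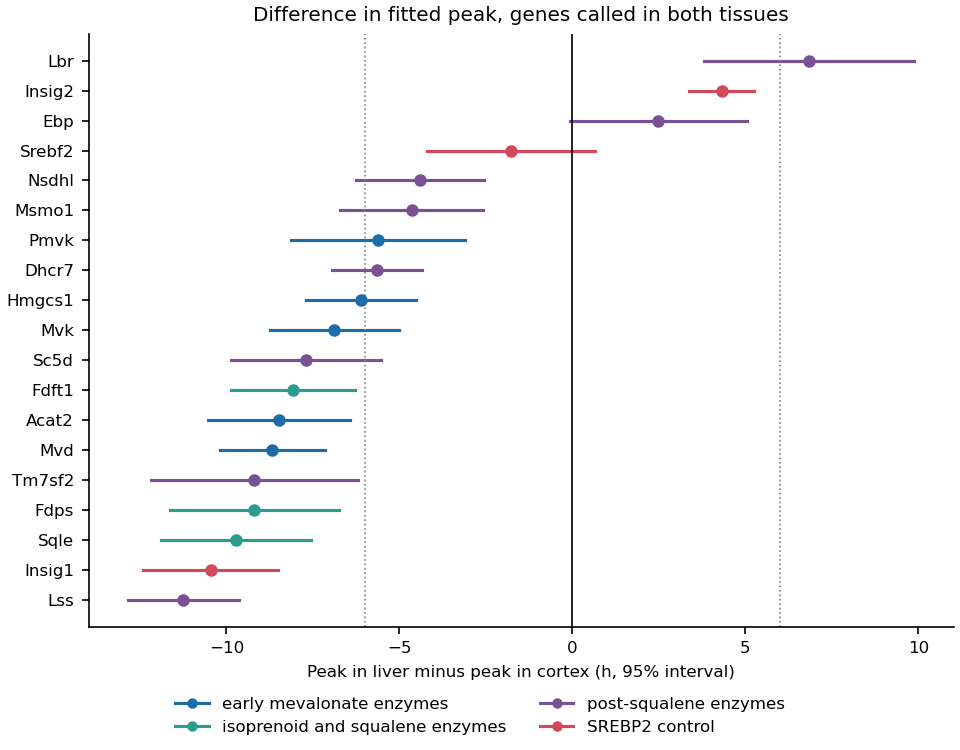
Liver peak time minus cortex peak time (h) with its 95% interval for the 19 genes called in both tissues, with dotted lines at 6 h on either side of 0. Of these, 16 lie below 0, from Srebf2 at -1.77 h to Lss at -11.3 h, and Ebp, Insig2 and Lbr lie above 0.

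Among the 16 enzymes called in both tissues, liver led cortex in 14 by the shorter way round the day. The lead had a median of 7.88 h and a range of 4.40 to 11.3 h. Lss was the farthest apart at -11.3 h (95% interval -12.8 to -9.65, which passes 12 h, so its order is not settled). Sqle followed at -9.72 h and Fdps at -9.2 h. Mvd differed by -8.67 h (-10.2 to -7.16) and Hmgcs1 by -6.12 h (-7.71 to -4.52). The exceptions were Ebp, an isomerase of the late pathway, at +2.48 h with an interval from -0.0784 to 5.04, and Lbr at +6.85 h (3.81 to 9.88). Of the control genes, Insig1 peaked 10.5 h earlier in liver by the shorter way round (-12.4 to -8.5, which also passes 12 h). Its fitted liver peak of ZT21.7 falls between the high group means at ZT15 and ZT3. Insig2 peaked 4.32 h later in liver (3.38 to 5.26), and Srebf2 differed by -1.77 h with an interval that reaches 0 (-4.2 to 0.661).

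Liver against hypothalamus, 27 of 27 genes differed (60.8% of all genes tested), and 25 with the mouse as a block (58.1%), which lost Lbr (adjusted p 0.083) and Npc2 (0.063). Of the 10 genes called in both, 8 peaked more than 6 h apart (80%, against 29.4% of all such genes). Insig1 differed by -8.9 h (-11.1 to -6.75) and Sc5d by -10.3 h (-12.6 to -7.95). The Sc5d interval passes 12 h, so which tissue peaked first is not settled. Its call in hypothalamus was lost with the first cycle alone and with ZT as a factor. Liver against striatum, 21 genes differed (42.0% of all genes tested), and the same number with the mouse block (34.0%). Cortex against hypothalamus, 4 genes differed (6.14%; 4 also with the mouse block, 7.38%): Insig1, Insig2, Msmo1 and Fdft1. The 10 genes called in both of those brain regions peaked a median of 1.45 h apart and 0 of them by more than 6 h (2.76% of all such genes). These comparisons share the liver or the cortex libraries, so they are not independent of each other.

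Genes around the pathway were read from 3 further lists of 34 genes in all. In liver 28 of 34 were rhythmic, beside 72.8% of all genes tested, 13 with a peak between ZT18 and ZT6 (38.3% of all genes) and 15 between ZT6 and ZT18 (34.5%). By list, 10 of 11 genes of the isoprenoid branches were called (5 in each direction), 10 of 13 of SREBP processing and sterol-regulated degradation (5 in each) and 8 of 10 of sterol uptake, esterification and other SREBP2-linked genes (3 between ZT18 and ZT6 and 5 between ZT6 and ZT18). Syvn1, a ubiquitin ligase of the endoplasmic reticulum, had a ratio of 3.29-fold with a peak at ZT20.1 (adjusted p 4.5e-13). Rdh11, a retinol dehydrogenase induced by SREBPs, had 2.33-fold with a peak at ZT1.51 (1.23e-19). In the isoprenoid branches Pdss2 and Pdss1, the subunits of the enzyme that builds the coenzyme Q side chain, peaked at ZT2.53 (1.43-fold) and ZT16.4 (1.46-fold), and Fntb, a subunit of farnesyltransferase, at ZT3.07 (1.46-fold). Nfyb, a subunit of NF-Y, was fitted at 1.31-fold with a peak at ZT2.71, and Sp1, a factor that binds GC-rich promoters, at 1.33-fold with a peak at ZT2.27. Tmem97, a sterol-regulated membrane protein, peaked at ZT11.8 in liver (1.49-fold), and Lipa, the lysosomal acid lipase, at ZT22.5. In cortex 18 of 33 of these genes were called (43.7% of all genes), in hypothalamus 12 of 33 (24.3%) and in striatum 2 of 34 (5.7%).

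Group means of the second cycle were set against those of the first. Over the 135 pairs of group means (27 genes at 5 ZT groups), the mean of the second cycle was 0.735 to 1.36 times that of the first in liver (median 0.998), 0.822 to 1.23 times in cortex (median 0.994) and 0.867 to 1.30 times in hypothalamus (median 1.002). In striatum the range was wider, 0.765 to 1.51 times (median 1.09). For scale, the median fitted log2 ratio of the 27 genes was 0.20 in cortex and 0.10 in hypothalamus.

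Levels between genes and tissues were compared in the authors' FPKM, which is scaled per length; each tissue's table was scaled on its own. The median FPKM was highest in liver for 23 of 27 genes, in hypothalamus for Ggps1, Lbr and Npc2, and in cortex for Srebf2. Sc5d had a median of 273 FPKM in liver and 25.8 in cortex, and Ebp 113 and 6.14. For Insig1 the medians were 119 in liver, 21.8 in cortex, 26.9 in hypothalamus and 19.1 in striatum. Hmgcs1, the enzyme with the widest liver swing, had medians of 133 in liver, 98.1 in cortex, 86.5 in hypothalamus and 53.8 in striatum. Srebf2 was lowest in liver, 11.5 in liver against 41.5, 34.1 and 25.2, as had Ggps1, 3.00 in liver against 18.2, 21.5 and 19.4.

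Liver ZT18 replicate 4 was below all other liver libraries in FPKM for 25 of the 27 genes; FPKM carries no TMM factor. With it, every liver library was above every brain library for 2 genes, Ebp and Sc5d. Without it this held for 7, the others being Fdps, Tm7sf2, Nsdhl, Hsd17b7 and Insig1, and every liver library was below every brain library for Ggps1 in both cases.

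**Figure D5:**
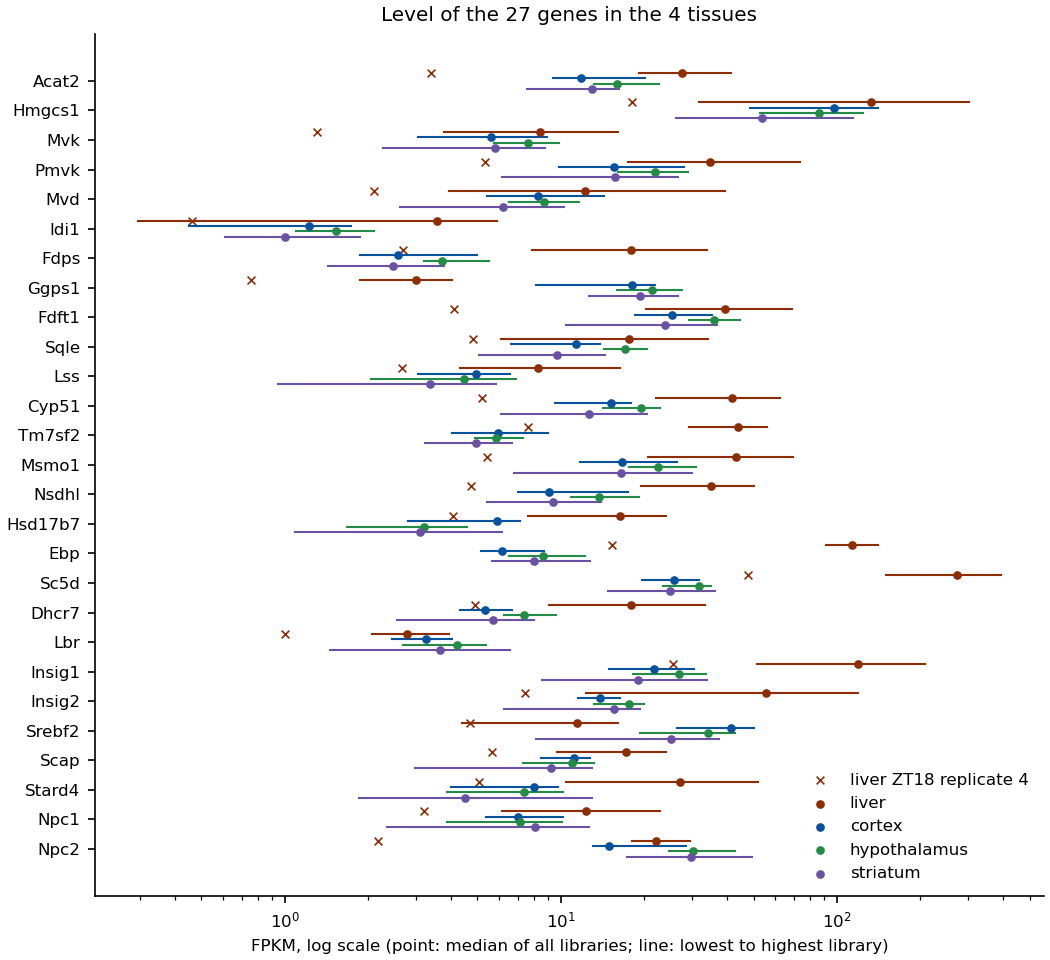
Median FPKM of the 27 genes in each tissue (log scale), with the range over libraries; the liver range leaves out ZT18 replicate 4, drawn as a cross. The liver ranges of 7 genes (Ebp, Sc5d, Fdps, Tm7sf2, Nsdhl, Hsd17b7 and Insig1) lie above their brain ranges, and that of Ggps1 lies below.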

How the data were processed

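Raw counts per Ensembl gene and FPKM values were deposited by the authors for each tissue. Per the submitters' processing notes, STAR 2.7.3a, HTSeq 0.10.0, GRCm38 and mm10 were used; no source used here gives the annotation release or the strand setting. The deposited FPKM values were checked to be proportional to the count over the library total, with a constant per gene, and carry no further scaling.

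Libraries were grouped by tissue and ZT from the labels. Counts were tested in each tissue with edgeR 4.0.16 (R 4.3.3): filterByExpr by ZT group, TMM scaling, and the quasi-likelihood test of a 24 h cosine and sine (2 degrees of freedom), with Benjamini-Hochberg adjustment over all genes. Standard errors of log2 ratios are by the delta method, and ± after a CPM is the SD. CPM is the count over the library total times its TMM factor. Tissues were compared by the tissue interaction of both terms, without and with the mouse as a block; mouse codes in the labels tie libraries of the same animal, whose deviations had a median correlation of 0.0774 between liver and cortex (77 pairs). The scripts were tested on simulated data.

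The named genes are all 27 members and, from each further list, the 3 called genes with the smallest adjusted p in liver. Members and lists were chosen with earlier results of these data known. Other settings covered DESeq2 1.42.0, the filter, scaling, ZT as a factor, the first cycle alone, blocks, left-out replicates and libraries that stood apart. Marker lists also covered astrocytes, cerebellar neurons, choroid plexus, hypothalamic neurons and pituitary. Promoters and motifs came from RefSeq, gene positions from the GRCm38 annotation. The precision of a count is set by the depths given above; p-values measure the spread between mice. Some genes of the pathway are not reported here.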

Additional observations from a re-analysis of the deposited data

Results flagged for a closer look

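Of 33 group values of the sterol genes that could be checked, in groups of 6 to 10 libraries, 3 held a library far from the rest of its group, and chance alone does so in about 1 group in 20. The 33 do not cover every gene in every group of that size. In liver at ZT18, replicate 4 had 22.1 CPM of Lbr against 12.4 to 14.9 in the other 5 libraries, and 193 CPM of Scap against 96.4 to 113. Not counted among the 3, that library also had 32.8 CPM of Npc2 against 67.1 to 77.9 in the other 5. For Acat2 it had 39.9 CPM against 62.2 to 73.7. The library had the lowest TMM factor of the liver, 0.217, and its part in these values was not tested. In cortex at ZT18, replicate 3 had 52.6 CPM of Ggps1 against 43.3 to 46.1 in the other 5.

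The daily course differed between tissues by the interaction test in edgeR for 24 genes between liver and cortex, 27 between liver and hypothalamus, 21 between liver and striatum and 4 between cortex and hypothalamus. In 12 genes rhythmic in both liver and cortex the peaks lay over 6 h apart. Liver peak time minus cortex peak time was -11.3 h for Lss, -10.5 h for Insig1, -9.72 h for Sqle, -9.2 h for Fdps, -9.19 h for Tm7sf2 and -8.67 h for Mvd. It was -8.48 h for Acat2, -8.07 h for Fdft1, -7.7 h for Sc5d, -6.88 h for Mvk, -6.12 h for Hmgcs1 and 6.85 h for Lbr. Near the 6 h mark, Hmgcs1 lay just outside it, and Dhcr7 (-5.64 h) and Pmvk (-5.62 h) just inside.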

How the results depend on the processing

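In liver the number of rhythmic sterol genes was 26 and lay between 22 and 26 under the other settings; Idi1, Tm7sf2, Hsd17b7 and Npc2 lost the call with the first cycle alone (adjusted p 0.052 to 0.0771), which has fewer libraries. In cortex it was 20 and ranged from 17 to 21, Pmvk and Lbr being among those lost. In hypothalamus it was 11, and it was 5 without a filter on low counts, 2 with the first cycle alone, 6 with ZT as a factor and 6 with the L code of the library names as a factor. The hypothalamic count with a peak between ZT6 and ZT18 was 9, and under the same settings 4, 0, 4 and 5. Without the libraries that stood apart, 8 genes were called there, 6 of them with a peak between ZT6 and ZT18. In striatum 0 genes were called, and 1, Insig1, by DESeq2's likelihood ratio test and without the libraries that stood apart; leaving out each replicate of ZT15 and ZT18 in turn gave 0 to 0. Between cortex and hypothalamus 4 genes differed, and 2 without the filter and 2 with the first cycle alone. Between liver and hypothalamus 27 genes differed, and 25 with DESeq2's scaling, 24 without the filter, 24 without the libraries that stood apart and 20 with the first cycle alone. The filter changes the genes tested and the first cycle alone changes the libraries. The cause of the changes in count was not tested for any setting. With the replicate number as a replicate block 26 genes were called in liver, 20 in cortex, 13 in hypothalamus and 0 in striatum. Libraries of the same number at different ZT had a median correlation of -0.0097 in liver, 0.147 in cortex, 0.24 in hypothalamus and 0.124 in striatum, with minima below 0 in each. For libraries of different numbers the medians were -0.0085, 0.012, -0.022 and -0.0214 in the same order. Same-number pairs thus lay higher in the brain tissues, and what the numbers share was not tested. With the mouse as a block 24, 25, 21 and 4 genes differed in the comparisons in the order given above. Without liver ZT18 replicate 4 and ZT6 replicate 7, a setting chosen after seeing the data, 26 genes were rhythmic, 17 by 1.5-fold or more, and Stard4 joined those with a 12 h component, making 7. Of 1917 values of single genes under other settings, 1824 were scored as unchanged, 79 lost the call, 14 gained it and 0 reversed. Direction was scored only for genes called in the main fit or in the other setting. A gene called in neither counts as unchanged whatever its direction. In striatum, where 0 genes were called in the main fit, 403 of 405 values were scored as unchanged.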

Other observations

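Liver ZT6 replicate 7, which had the lowest TMM factor after ZT18 replicate 4 (0.719), had 1.44 CPM of Idi1 against 9.6 to 15.1 in the other 11 libraries of its group, and 30.5 CPM of Srebf2 against 45.3 to 60.8. It was the lowest of its group for 8 of the 27 genes and the highest for 6; both genes and library were singled out after their values were seen. Liver ZT18 replicate 4 was the highest of its group for 6 genes and the lowest for 10.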
